A study of Mus musculus with 8 samples.

Results

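The blood vessels of the brain are described here through 44 genes. They are 34 genes known from the endothelium, the cells that line the vessel and form the blood-brain barrier, and 10 genes known from mural cells, the pericytes and smooth muscle cells that surround it. The genes were listed by name, all 44 were found, each on 1 row, and the whole table holds 24344 gene symbols. RNA was sequenced from homogenised occipital cortex of C57BL/6J mice at postnatal day 35, 4 libraries from mice that had no food for 48 h and 4 from mice with free access to food. The labels name no mutation, no agent and no sex, and nothing in them says that each library came from a separate animal, so the p-values measure the spread between these libraries, which may be technical in part. Values are FPKM, fragments per kilobase of transcript, scaled to the fragments mapped in the library, so levels of different genes are compared per length.

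Brain capillaries have tight junctions between their endothelial cells and few vesicles crossing them. Glucose, amino acids, lipids and ions therefore pass through named carriers, while efflux pumps return foreign compounds to the blood. Pericytes share a basement membrane with the endothelium and help to keep the barrier closed, and smooth muscle sets the calibre of arterioles. Growth factor receptors on the endothelium, such as those for VEGF, angiopoietin and apelin, govern sprouting and vessel stability.

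Depth was estimated at 17700000 to 21700000 fragments per library, which makes 1 FPKM on a transcript of 2 kb worth 35.3 to 43.4 fragments. The number of genes at 1 FPKM or above was 12217 to 12440. In both groups, libraries with odd replicate numbers carried Y-linked transcripts and those with even numbers carried Xist. Ad libitum replicate 3 held both, with Xist at 32.2 FPKM and Y-linked genes summing to 20.2 FPKM. Without that library 2 members were called higher and 12 lower, since Slc38a5 then missed the filter on low values. That fit called 17.9% of all tested genes. Endothelial genes were clearly present, with Slc2a1 at a mean of 25.9 FPKM over all libraries, Ly6c1 at 22.1 and Cldn5 at 9.94. Mural genes were present too, with Vtn at 21.9 and Rgs5 at 11.01 FPKM.

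After fasting, carriers for glucose and for a lipid rose, while an amino acid carrier, an organic anion carrier, the peptide apelin, the receptor genes Tek, Tie1 and Kdr and 3 pericyte genes fell. Each gene was tested with limma on log2(FPKM + 1), across the 12377 genes that reached 1 FPKM in at least 4 libraries, with the Benjamini-Hochberg adjustment, and counted as called where the adjusted p was under 0.05. Of the 44 members 41 passed that filter, and 15 were called, 2 higher and 13 lower in fasted cortex. The share called was 36.6% of tested members and 25.8% of all tested genes. Members and lists were chosen with earlier results of these data known, so shares above that of all genes are descriptions, not a test. By direction, 9.56% of all tested genes were called higher and 16.3% lower. The 15 called members were also the tested members whose 4 fasted and 4 fed values did not overlap, against 27.6% of all tested genes without overlap. Fasted means of the lower members ranged from 0.272 to 0.721 of the fed mean. The median log2 change was -0.12 over members and -0.02 over all tested genes, and 65.9% of members against 55.3% of all genes lay below 0. In a homogenate, fewer cells of a type and less RNA per cell cannot be told apart. Nor do the values show which cells a transcript came from, where a member is also expressed outside vessels.

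The split between higher and lower calls moved with the scaling between libraries. With each library scaled to the same sum, 5 members were called higher and 13 lower, and of all genes 1587 were higher and 532 lower, against 1183 and 2015 on the deposited values. The 10 most abundant genes held 24.1% of the FPKM sum in ad libitum replicate 2, 13.8% in ad libitum replicate 3, 9.78% in fasted replicate 2 and 6.40% in fasted replicate 3, against 3.98% to 4.23% in the other libraries, and the part of this in the equal-sum values was not tested. Sums here and in equal-sum scaling are over 1 row per symbol. They ran from 253470 to 360010 FPKM per library, against 254086 to 640017 FPKM over all deposited rows. Median-ratio and quantile scaling each gave 4 members higher and 13 lower, with 29.9% of all tested genes called. A fit blocked on replicate number compares fasted and fed libraries of the same number, and in it 5 members rose and 16 fell, at a background of 36.4% of all tested genes. The labels do not say what the replicate numbers mark. All 15 members called on the deposited values were called under every one of the 18 alternatives that tested them.

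**Figure D1:**
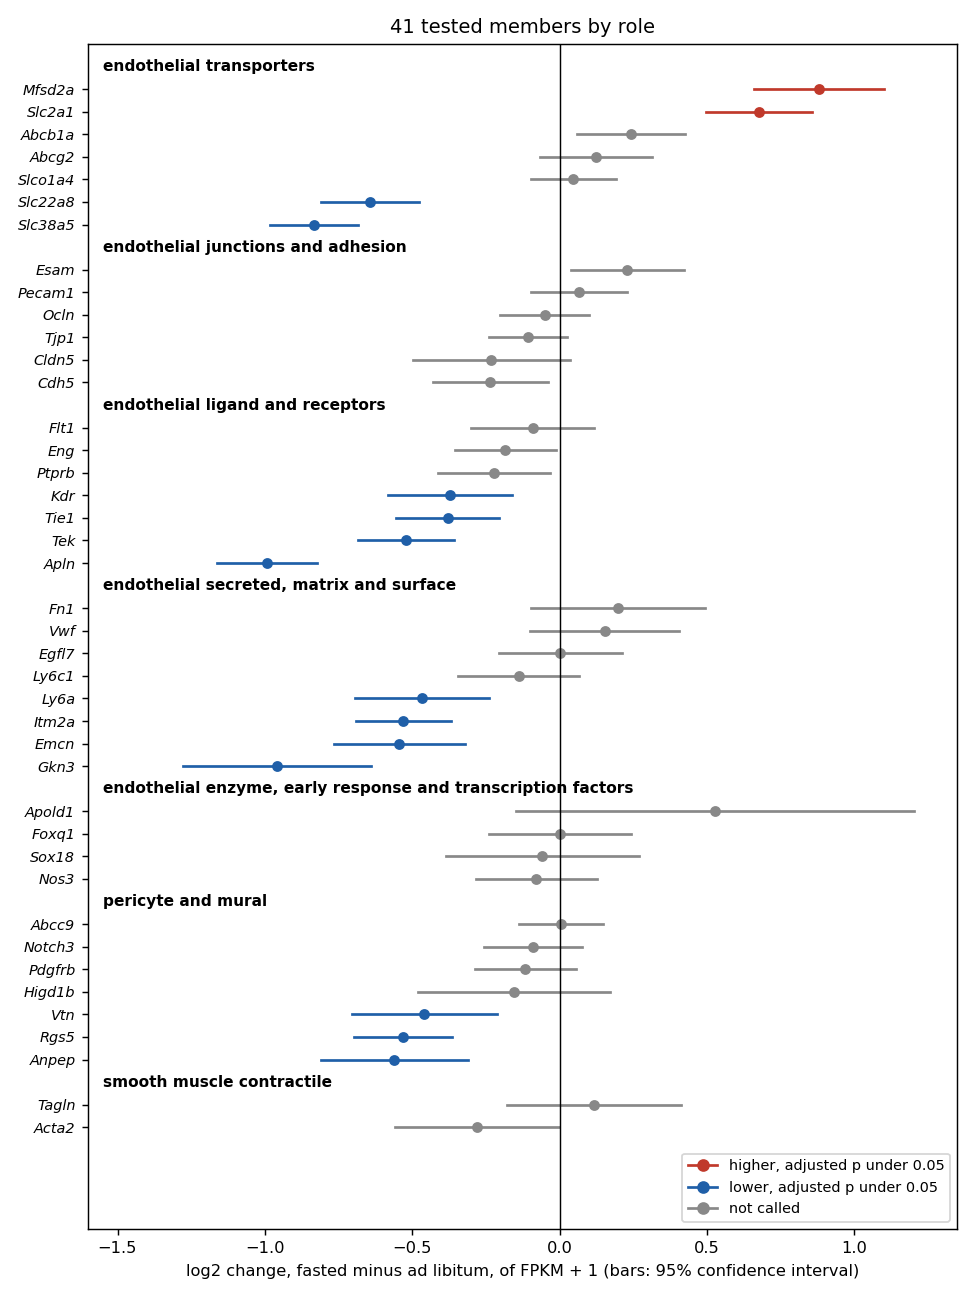
Log2 change of FPKM + 1, fasted minus ad libitum, for each tested member, grouped by role, with 95% confidence intervals from limma. Mfsd2a at 0.88 and Slc2a1 at 0.68 are the called members to the right of 0, and the 13 called lower lie to the left, with Apln farthest at -0.99.

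Among the 7 endothelial transporters 2 rose and 2 fell (57.1% called, against 25.8% of all tested genes), with a median log2 change of 0.12. Slc2a1 encodes the glucose transporter GLUT1 of the barrier. It measured 18.7, 20.3, 19.6 and 19.96 FPKM in ad libitum replicates 1 to 4 and 37.4, 27.9, 29.4 and 34.0 FPKM in fasted replicates 1 to 4. The lowest fasted library lay well above the highest fed library, and the fasted libraries varied more among themselves. The mean went from 19.7 ± 0.674 (SD, n = 4) to 32.2 ± 4.35 FPKM (SD, n = 4), a ratio of 1.64 and a log2 change of 0.68 (SE 0.0821, limma adjusted p = 0.000341).

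Mfsd2a encodes the sodium-dependent carrier of lysophosphatidylcholine, by which docosahexaenoic acid enters the brain, and is also known to restrain vesicle transport across the endothelium. Fed libraries were at 6.47, 6.58, 5.27 and 5.81 FPKM and fasted libraries at 14.5, 9.93, 11.5 and 12.1 FPKM. Every fasted value was above every fed value, and fasted replicate 1 was the highest for this gene and for Slc2a1. The mean rose from 6.03 ± 0.614 to 12.01 ± 1.901 FPKM (SD, n = 4 each), a ratio of 1.99 and a log2 change of 0.88 (SE 0.10, limma adjusted p = 0.000257).

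Slc38a5, a carrier for glutamine and other small neutral amino acids, went the other way. Its fed values were 1.55, 1.71, 1.55 and 1.73 FPKM and its fasted values 0.520, 0.560, 0.371 and 0.463 FPKM. The fed libraries were tightly grouped and all lay above the fasted ones, which were all under 1 FPKM, so the gene passed the filter only through the fed group. The mean fell from 1.63 ± 0.0972 to 0.479 ± 0.0818 FPKM (SD, n = 4 each), a ratio of 0.293. The log2 change was -0.83 with a pseudocount of 1 (limma adjusted p = 3.7e-05) and -1.59 with a pseudocount of 0.1, since a pseudocount shrinks the change of low genes. With no filter on low genes the adjusted p from limma was 0.000133.

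Slc22a8 encodes the organic anion transporter OAT3, which moves anionic metabolites and drugs. It stood at 4.67, 5.44, 4.48 and 5.56 FPKM in fed and 3.05, 2.93, 2.91 and 2.56 FPKM in fasted libraries, with no overlap. The mean fell from 5.04 ± 0.541 to 2.86 ± 0.211 FPKM (SD, n = 4 each; log2 change -0.64, limma adjusted p = 0.000302).

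The efflux and anion carriers Abcb1a, Abcg2 and Slco1a4 did not pass the threshold. Abcb1a, which encodes the drug pump P-glycoprotein, was nearest to it. It had fed values of 3.48, 4.70, 3.80 and 4.48 FPKM and fasted values of 4.88, 4.59, 5.22 and 5.43 FPKM. Only fasted replicate 2 lay within the fed range, and the log2 change was 0.24 (95% interval 0.06 to 0.43, limma adjusted p = 0.0539). The adjusted p was 0.0319 with the replicate block and 0.0154 with equal-sum scaling, and 0.0336 and 0.0296 without ad libitum replicate 2 or 4. Abcg2, the pump known as breast cancer resistance protein, had an interval of -0.07 to 0.31, and Slco1a4, a carrier of organic anions and thyroid hormone, of -0.10 to 0.19.

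Promoter stretches are shown for Slc2a1 and Mfsd2a, the members that rose. RefSeq promoters (GRCm38.p6) were at hand for 28 of the 44 members, 14 of them called, and the 250 bases before each start were searched on both strands. The stretches below run 5′ to 3′ along the gene, at chr4:119108595-119108713 on the plus strand for Slc2a1 and chr4:122961189-122961308 on the minus strand for Mfsd2a. Capitals mark ACGTG, the core of the hypoxia response element. Both end next to the annotated gene start, and the last 3 bases of the Slc2a1 stretch lie in an exon of GENCODE M21.
Slc2a1: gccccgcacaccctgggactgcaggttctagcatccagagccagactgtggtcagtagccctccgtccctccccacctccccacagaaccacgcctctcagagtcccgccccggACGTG
Mfsd2a: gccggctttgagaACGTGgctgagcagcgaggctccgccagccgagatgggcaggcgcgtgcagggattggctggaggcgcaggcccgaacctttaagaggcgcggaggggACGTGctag
The core ACGTG occurred in 5 of 28 members, Slc2a1, Mfsd2a, Slc38a5, Apold1 and Notch3. That is 17.9% of members against 18.5% of the 27025 genes in the promoter table, so the motif was about as common among members as among all genes. Slc38a5, which holds it, fell while the other two called holders rose. The E-box CACGTG, which overlaps ACGTG, occurred in 1 member promoter, that of Slc38a5, and in 6.86% of all genes. The glucocorticoid receptor element was in 0 of 28 members and 0.44% of all genes, CCGGAAGT in 0 of 28 and 3.23%, and the CArG box in 0 of 28 and 1.62%. A match is only a run of letters and shows no binding.

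**Figure D2:**
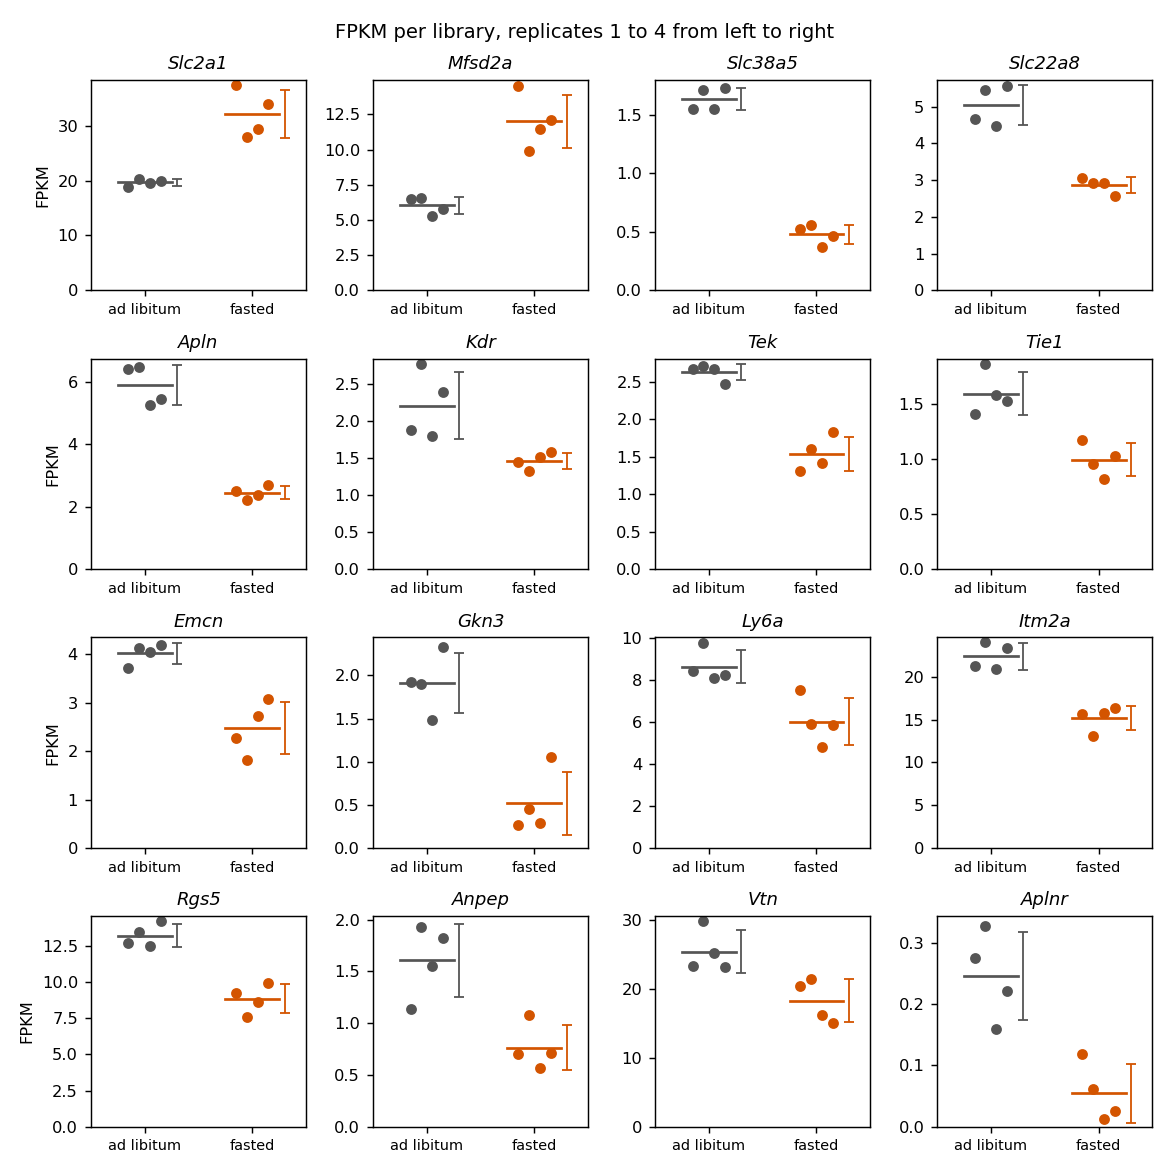
FPKM (linear axes from 0) of the 15 called members and of Aplnr in each library, replicates 1 to 4 from left to right, with lines at group means and bars of 1 SD. No gene shown has a fasted value within its fed range. Slc2a1 and Mfsd2a lie higher after fasting and the others lower.

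None of the 6 junction and adhesion genes was called, and their median log2 change was -0.08. Cldn5, the main claudin of the barrier's tight junctions, measured 12.02, 13.05, 9.83 and 8.49 FPKM in fed and 9.27, 9.46, 7.37 and 10.0005 FPKM in fasted libraries. The groups overlapped, with the lowest fed library below 3 of the fasted ones. Its log2 change was -0.23 (95% interval -0.50 to 0.03, limma adjusted p = 0.182), and without ad libitum replicate 4 the adjusted p was 0.0367. Occludin (Ocln) had an interval of -0.20 to 0.10 and its cytoplasmic partner Tjp1, or ZO-1, one of -0.24 to 0.03. Neither interval reaches the size of the falls seen in the called members, where the log2 change nearest to 0 was -0.37. For Ocln, at 1.41 FPKM in fed libraries, this comparison is loose, since a pseudocount shrinks the change of low genes.

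Cdh5, the endothelial cadherin of adherens junctions, and Esam, an adhesion molecule of endothelial tight junctions, lay on opposite sides of 0. Cdh5 was at 3.21, 3.85, 3.26 and 4.19 FPKM in fed and 3.18, 2.82, 2.48 and 3.23 FPKM in fasted libraries, which overlapped narrowly. Esam was at 4.23, 4.33, 3.63 and 3.96 FPKM in fed and 5.94, 4.86, 4.16 and 4.78 FPKM in fasted libraries, where only fasted replicate 3 fell within the fed range. Neither was called without a block (limma adjusted p = 0.0733 for Cdh5 and 0.0761 for Esam), and both were called with the replicate block (0.0283 and 0.0197). Esam was also called without fasted replicate 3 (0.0372) and under the 3 other scalings, at 0.0205 to 0.0362. Pecam1, the platelet and endothelial adhesion molecule common to all endothelium, differed little, at 4.59 ± 0.351 FPKM in fed and 4.86 ± 0.478 FPKM in fasted libraries (SD, n = 4 each, interval of the log2 change -0.10 to 0.23).

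Of the 8 genes for an endothelial ligand and receptors 7 were tested, and 4 of them fell, with a median log2 change of -0.37. That is 57.1% called, against 25.8% of all tested genes. Apln, which encodes the secreted peptide apelin made by tip cells of sprouting vessels, was at 6.40, 6.46, 5.24 and 5.43 FPKM in fed libraries and at 2.49, 2.23, 2.37 and 2.71 FPKM in fasted ones. The fasted libraries were close together and far under the fed range. Its mean fasted level was 0.416 of the fed level (log2 change -0.99, SE 0.0772, limma adjusted p = 2.72e-05).

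Aplnr, the receptor for apelin, was too low for the main test. Fed libraries held 0.275, 0.327, 0.160 and 0.221 FPKM and fasted libraries 0.119, 0.0609, 0.0121 and 0.0266 FPKM. All fasted values lay below all fed values, at an estimated 11.1 to 22.7 fragments per fed library and 1.0 to 7.8 per fasted library. With no filter on low genes, where 16.4% of genes were called, its adjusted p from limma was 0.00927. Ligand and receptor transcripts were thus both lower in fasted libraries, the receptor at a level where few fragments carry the value.

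Tek and Tie1 encode the TIE receptors that bind angiopoietins or modulate that binding. Tek was at 2.67, 2.71, 2.67 and 2.48 FPKM in fed and at 1.31, 1.60, 1.41 and 1.83 FPKM in fasted libraries. Tie1 was at 1.41, 1.86, 1.58 and 1.53 FPKM in fed and at 1.17, 0.959, 0.815 and 1.03 FPKM in fasted libraries. Both were lower in every fasted library than in any fed one. The log2 change was -0.52 for Tek (SE 0.0741, limma adjusted p = 0.000809) and -0.38 for Tie1 (SE 0.0796, adjusted p = 0.00586), the latter -0.63 with a pseudocount of 0.1. Of the angiopoietin ligands, looked up after these values were seen, Angpt1 was at 1.28 FPKM in fed and 1.27 FPKM in fasted libraries (adjusted p = 0.93), and Angpt2 at 0.359 and 0.277 FPKM was under the filter.

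Kdr, the main signalling receptor for VEGF, was at 1.88, 2.78, 1.80 and 2.39 FPKM in fed and at 1.45, 1.33, 1.51 and 1.58 FPKM in fasted libraries. Fed libraries were widely spread, but the lowest of them was still above every fasted library. Its log2 change was -0.37 (SE 0.0956, limma adjusted p = 0.0158, with 0.0465 the highest over the alternatives). Flt1, the VEGF receptor that largely acts as a decoy, had overlapping groups and an interval of -0.30 to 0.12. Eng, a co-receptor for TGF-beta family ligands, and Ptprb, a phosphatase that acts on the TIE receptors, were lower in the fasted library of each of the 4 replicate numbers. They were not called without a block (adjusted p = 0.106 and 0.0809) but were called with it (0.0353 and 0.0236), and Ptprb also without ad libitum replicate 1 (0.0386).

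Stretches of the Apln, Tek and Gkn3 promoters are shown as called members that hold ACAAAG, the core bound by SOX and TCF/LEF factors, which act in endothelial identity and in WNT signalling. They lie at chrX:48034854-48035103 on the minus strand for Apln, chr4:94739169-94739288 on the plus strand for Tek and chr6:87388996-87389115 on the minus strand for Gkn3 (RefSeq, GRCm38.p6). Capitals mark ACAAAG or CTTTGT, the same site on the other strand.
Apln: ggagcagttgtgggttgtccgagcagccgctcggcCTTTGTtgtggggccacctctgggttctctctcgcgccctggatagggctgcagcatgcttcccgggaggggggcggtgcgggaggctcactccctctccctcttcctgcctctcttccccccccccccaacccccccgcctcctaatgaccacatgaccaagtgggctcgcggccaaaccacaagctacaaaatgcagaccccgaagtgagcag
Tek: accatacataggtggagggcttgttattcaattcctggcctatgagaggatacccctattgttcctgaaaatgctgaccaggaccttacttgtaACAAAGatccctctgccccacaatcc
Gkn3: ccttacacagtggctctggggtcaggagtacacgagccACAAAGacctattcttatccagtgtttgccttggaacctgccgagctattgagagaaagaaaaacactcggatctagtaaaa
The core was in 8 of 28 members (28.6%) and in 18.6% of all genes. Abcb1a, Egfl7, Eng, Ly6c1 and Slc22a8 were the other holders, of which only Slc22a8 was called. The ETS core AGGAAG was in 12 of 28 members (42.9%) and 32.3% of all genes. These shares are given as descriptions, with no test.

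Among 8 genes for secreted, matrix and surface proteins 4 fell, with a median log2 change of -0.30. The share called was 50.0%, against 25.8% of all tested genes. Gkn3, known as a marker of arterial endothelium in mouse brain, was at 1.92, 1.90, 1.49 and 2.33 FPKM in fed and at 0.272, 0.457, 0.295 and 1.052 FPKM in fasted libraries. All fasted libraries were lower, with fasted replicate 4 standing above the other 3 and the fed values highest in ad libitum replicate 4. The mean went from 1.91 ± 0.345 to 0.519 ± 0.365 FPKM (SD, n = 4 each), at 0.272 the lowest ratio among the members called. Only fasted replicate 4 reached 1 FPKM among the fasted libraries, so Gkn3 passed the filter through the fed group. The log2 change was -0.96 with a pseudocount of 1 (SE 0.145, limma adjusted p = 0.00106) and -1.84 with 0.1. With no filter on low genes the adjusted p from limma was 0.00384. These values rest on few fragments, an estimated 23.9 to 36.9 per fed library and 4.1 to 18.5 per fasted library.

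Itm2a encodes a membrane protein abundant in brain endothelium, and was at 21.3, 24.1, 20.9 and 23.4 FPKM in fed and at 15.7, 13.1, 15.8 and 16.3 FPKM in fasted libraries. Emcn, the endothelial sialomucin endomucin of capillaries and veins, was at 3.72, 4.13, 4.04 and 4.19 FPKM in fed and at 2.28, 1.82, 2.73 and 3.07 FPKM in fasted libraries. In both genes the groups were apart. The log2 changes were -0.53 for Itm2a (limma adjusted p = 0.000681) and -0.54 for Emcn (adjusted p = 0.00314).

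Ly6a, the surface protein Sca-1, was at 8.47, 9.80, 8.10 and 8.26 FPKM in fed and at 7.56, 5.90, 4.81 and 5.86 FPKM in fasted libraries. The groups did not overlap, with fasted replicate 1 nearest to the fed range (log2 change -0.47, limma adjusted p = 0.0079). It belongs to a gene family with similar sequences, so reads may be shared with relatives and the value is uncertain. Ly6c1 of the same family was more abundant, at 23.2 ± 2.73 FPKM in fed and 20.97 ± 2.53 FPKM in fasted libraries (SD, n = 4 each), and was not called (interval -0.35 to 0.07).

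Egfl7, a secreted regulator of vessel tube formation, had the same mean in both groups to within its spread, 9.47 ± 1.16 and 9.49 ± 1.19 FPKM (SD, n = 4 each, interval of the log2 change -0.21 to 0.21). Vwf, which encodes the clotting protein von Willebrand factor, had an interval of -0.10 to 0.40, and Fn1, fibronectin, one of -0.10 to 0.49. Fn1 was called with equal-sum scaling alone (adjusted p = 0.0338), and in fed libraries it ranged from 4.72 to 8.53 FPKM.

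**Figure D3:**
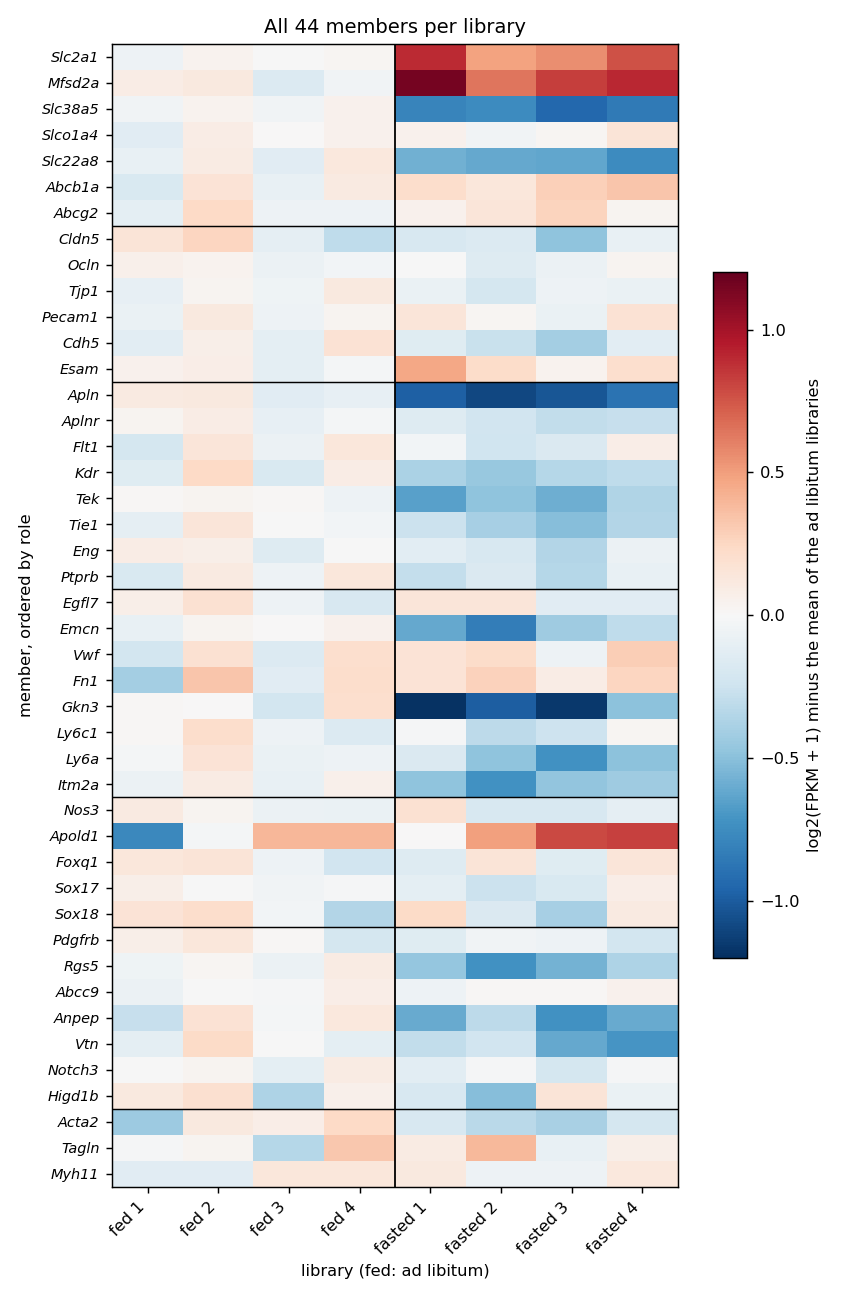
Each member's log2(FPKM + 1) in each library relative to its mean over the 4 ad libitum libraries, members grouped by role. The colour scale saturates at ±1.2. All fasted columns are low for Apln, Gkn3 and Slc38a5, with Gkn3 least so in fasted replicate 4, and high for Mfsd2a and Slc2a1. Apold1 varies within both groups.

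Of the endothelial enzyme, early-response and transcription factor genes 5 were listed, 4 tested and 0 called in the unblocked fit. By unadjusted p under 0.05, 21 of the 41 tested members passed, against 4773 of all 12377 genes. Nos3, the endothelial nitric oxide synthase, had an interval of -0.28 to 0.13. Its exons overlap those of Atg9b on the opposite strand, and whether counting used the strand is not given in the sources used here. Slc2a1, Abcb1a, Eng, Egfl7, Fn1, Sox17, Abcc9, Notch3 and Tagln also share exon bases with genes on the opposite strand. The longest shared stretch was 804 bases for Sox17, 645 for Tagln, 452 for Abcb1a and 105 for Slc2a1. Egfl7 also overlaps Gm20532 on the same strand, by up to 125 bases. The endothelial factors Foxq1, Sox17 and Sox18 were all low. Foxq1 was at 0.861 ± 0.231 FPKM in fed and 0.862 ± 0.227 FPKM in fasted libraries (SD, n = 4 each) and overlaps the gene A530084C06Rik on the opposite strand. Sox18 had an interval of -0.39 to 0.27. Sox17 was under the filter, at 0.758 to 0.896 FPKM in fed and 0.519 to 0.909 FPKM in fasted libraries.

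Apold1 encodes an early-response protein of the endothelium. It was at 1.08, 2.50, 3.69 and 3.67 FPKM in ad libitum replicates 1 to 4 and at 2.57, 3.99, 5.17 and 5.27 FPKM in fasted replicates 1 to 4. The groups overlapped widely, yet the fasted library was higher at each of the 4 replicate numbers, and libraries of the same number were low or high together. The log2 change was 0.53 (95% interval -0.15 to 1.2, limma adjusted p = 0.223), and with the replicate block the adjusted p was 0.000742.

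Klf2 and Klf4, flow-responsive factors of endothelium, and Fos, an early-response gene of neurons and other cells, were looked up after the values of Apold1 were seen. Klf2 was at 1.98, 4.84, 5.01 and 5.84 FPKM in fed and 4.73, 5.33, 6.41 and 9.78 FPKM in fasted libraries. Klf4 was at 0.979, 1.62, 2.47 and 3.002 FPKM in fed and 2.58, 2.13, 4.04 and 5.15 FPKM in fasted libraries. Both were lowest in ad libitum replicate 1, as was Apold1, and both were higher in the fasted library of each number. The unblocked adjusted p was 0.262 for Klf2 and 0.159 for Klf4, and with the block 0.0232 and 0.00149. Fos was also lowest in ad libitum replicate 1, at 24.6 against 57.6 to 71.6 FPKM in the other fed libraries, and in fasted libraries it ranged from 30.2 to 63.3 FPKM (adjusted p = 0.908, with the block 0.553).

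**Figure D4:**
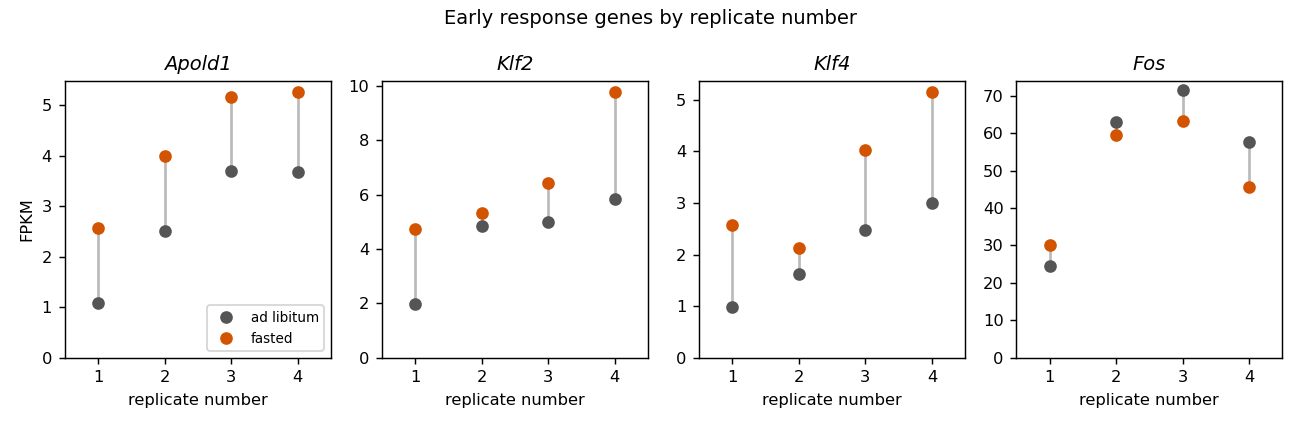
FPKM of Apold1, Klf2, Klf4 and Fos by replicate number in ad libitum and fasted libraries, with lines joining libraries of the same number. For Apold1, Klf2 and Klf4 every line rises to the fasted library, whereas the lines of Fos go in both directions.

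Mural genes were lower as a sum, 38.3 to 43.8 FPKM in fasted libraries against 50.7 to 60.7 FPKM in fed ones, with no overlap. Most of that sum is Vtn and Rgs5. Of the 7 pericyte genes 3 fell (42.9%), with a median log2 change of -0.16. Of the 9 tested mural members 33.3% were called, against 25.8% of all tested genes. Endothelial members summed to 183 to 210 FPKM in fasted and 191 to 223 FPKM in fed libraries, which overlap.

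Rgs5, a regulator of G-protein signalling that marks brain pericytes, was at 12.7, 13.4, 12.5 and 14.2 FPKM in fed and at 9.25, 7.57, 8.59 and 9.94 FPKM in fasted libraries. Every fasted library was below the fed range (ratio of means 0.670, log2 change -0.53, limma adjusted p = 0.00081). Vtn, which encodes the adhesive plasma protein vitronectin and in brain is a pericyte transcript, was at 23.3, 29.8, 25.3 and 23.3 FPKM in fed and at 20.5, 21.5, 16.2 and 15.1 FPKM in fasted libraries. The gap between the groups was small, with the highest fasted value just under the lowest fed ones (log2 change -0.46, limma adjusted p = 0.0126). Anpep, the surface peptidase CD13 of pericytes, was at 1.13, 1.93, 1.55 and 1.82 FPKM in fed and at 0.701, 1.08, 0.567 and 0.708 FPKM in fasted libraries. The highest fasted library came close to the lowest fed one (log2 change -0.56, limma adjusted p = 0.00493, and -0.99 with a pseudocount of 0.1). Only fasted replicate 2 reached 1 FPKM among the fasted libraries, so Anpep passed the filter through the fed group. With no filter on low genes its adjusted p from limma was 0.0117.

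Other pericyte genes did not differ by this test. Pdgfrb, the receptor through which endothelial PDGF recruits pericytes, was at 4.98 ± 0.588 FPKM in fed and 4.51 ± 0.309 FPKM in fasted libraries (SD, n = 4 each, interval -0.29 to 0.06). Abcc9, the regulatory subunit of a potassium channel, was at 1.12 ± 0.092 and 1.13 ± 0.0727 FPKM (SD, n = 4 each, interval -0.14 to 0.15). Notch3 had an interval of -0.26 to 0.08 and Higd1b, a mitochondrial protein of pericytes, one of -0.48 to 0.17. For Abcc9 and Notch3 these intervals do not reach the log2 change of Anpep, which is also a low gene. They cannot be set against the changes of the more abundant Rgs5 and Vtn, since a pseudocount shrinks the change of low genes.

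No smooth muscle gene was called. Acta2, smooth muscle actin, was at 1.77, 3.06, 2.97 and 3.43 FPKM in fed and at 2.28, 1.995, 1.86 and 2.24 FPKM in fasted libraries, so that ad libitum replicate 1 was the lowest of all and the other fed libraries the highest. The log2 change was -0.28 (limma adjusted p = 0.128), and without ad libitum replicate 1 the adjusted p was 0.00496. Tagln, which binds actin filaments, had an interval of -0.18 to 0.41. Myh11, the myosin heavy chain of smooth muscle, was under the filter, at 0.629 to 0.974 FPKM in fed and 0.714 to 0.957 FPKM in fasted libraries.

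Markers of other cells were read beside these results. Over all tested genes 25.8% were called, 9.56% higher and 16.3% lower. Microglial markers summed to 129.97 to 149 FPKM in fasted and 150.3 to 209 FPKM in fed libraries, and 7 of 14 fell. Astrocyte markers summed to 831 to 911 FPKM in fasted and 842 to 905 FPKM in fed libraries, with 2 of 12 higher and 4 lower. Of 13 tested markers of fibroblasts and meninges 2 fell, and their sums overlapped (511 to 891 and 534 to 769 FPKM, mostly Ptgds). Markers of red blood cells, 0 of 5 called, summed to 270 to 565 FPKM in fasted and 306 to 588 FPKM in fed libraries. Of 10 markers of excitatory neurons 1 rose and 6 fell, while their sums overlapped (1160 to 1330 FPKM in fasted and 1098 to 1287 FPKM in fed libraries), and the most abundant, Camk2a and Slc17a7, were not called. Of inhibitory neuron markers 0 of 10 were called, and of oligodendrocyte markers 1 of 10 rose and 1 fell. The perivascular macrophage marker Stab1, the tested gene of its list, fell from 1.47 to 1.09 FPKM (limma adjusted p = 0.0214), and the list's sums, 3.06 to 4.58 and 4.18 to 5.80 FPKM, overlapped. The tested ependymal marker Foxj1 was not called. No marker in these lists was at 0 in all libraries. The part of these shifts in the vascular results was not tested.

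**Figure D5:**
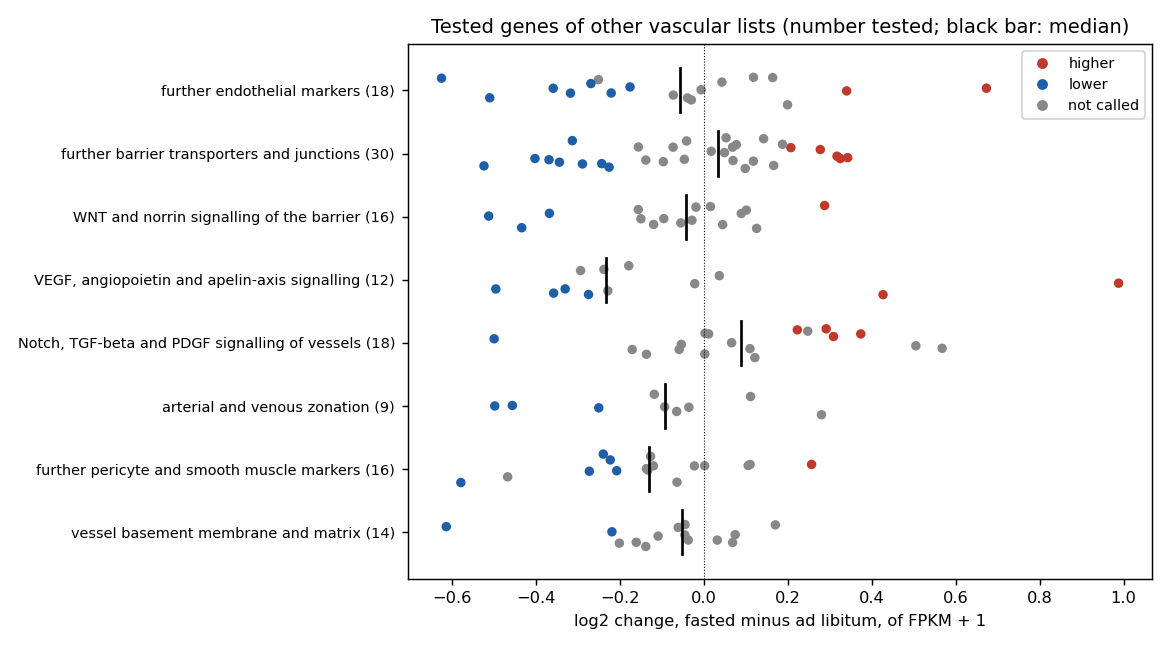
Log2 change, fasted minus ad libitum, of each tested gene in the other vascular lists, with called genes marked and the median of each list. Called genes lie on both sides of 0 in most lists, with Angptl4 farthest to the right at 0.99 and Cav1 farthest to the left at -0.63.

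Genes of the same pathways outside the 44 were taken from lists, which were also chosen with earlier results of these data known. Of 18 tested further endothelial markers 2 rose and 7 fell, 50.0% of them against 25.8% of all tested genes, with a median log2 change of -0.06. Podxl, a sialomucin of the luminal surface, went from 6.48 to 4.24 FPKM (-0.51, limma adjusted p = 0.000368) and Cav1, the coat protein of caveolae, from 4.60 to 2.64 FPKM (-0.63, adjusted p = 0.00133). Ecscr, an endothelial surface protein, was also lower (-0.36, adjusted p = 0.00332). Ctla2a, a protease inhibitor gene, went from 2.17 to 4.08 FPKM (0.67, adjusted p = 0.00164).

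Of 30 further barrier transporters and junction genes 5 rose and 8 fell (43.3%, against 25.8% of all tested genes), with a median of 0.03. Tfrc, the transferrin receptor that brings in iron, rose from 22.8 to 29.2 FPKM (0.34, limma adjusted p = 0.000914). Jam2, a junctional adhesion molecule, fell from 9.33 to 6.81 FPKM (-0.40, adjusted p = 0.000482) and Slc16a4, of the monocarboxylate transporter family, from 1.495 to 0.735 FPKM (-0.52, adjusted p = 0.00138). Slc16a4 passed the filter only through the fed group, and with no filter its adjusted p was 0.00318. Abcc5, an efflux pump, had a log2 change of -0.31 (adjusted p = 0.00125) and lost its call with equal-sum scaling (0.208).

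Ligands of the receptors above were on a list of their own. In this list of VEGF, angiopoietin and apelin-axis genes 2 of 12 rose and 4 fell (50.0%, against 25.8% of all tested genes). The median was -0.23. Vegfa, the chief ligand of Kdr, went from 19.0 to 14.6 FPKM (-0.36, limma adjusted p = 0.000972), a call lost with equal-sum scaling (0.113). Cxcl12, a chemokine of vessels and other cells, went from 18.2 to 12.6 FPKM (-0.50, adjusted p = 0.000137). Angptl4, an inhibitor of lipoprotein lipase, rose from 0.825 to 2.65 FPKM (0.99, adjusted p = 0.00012; it passed the filter only through the fasted group, and with no filter the adjusted p was 0.000639). A further rise was that of Adm, the vasodilator peptide adrenomedullin, from 0.990 to 1.69 FPKM (0.43, adjusted p = 0.00967). Ramp2, the partner protein of the adrenomedullin receptor, named after its value was seen, was at 8.17 and 10.6 FPKM (0.34, adjusted p = 0.0155).

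WNT ligands and norrin are provided by astrocytes and neurons to form and keep the barrier. Of 16 tested genes of this list 1 rose and 3 fell, and the share called, 25.0%, was near the 25.8% of all tested genes, so the count is no result about the list. Wnt7a went from 2.06 to 1.27 FPKM (-0.43, limma adjusted p = 0.00587) and Ndp, norrin, had a log2 change of -0.51 (adjusted p = 0.00696). Wnt7b was at -0.37 (adjusted p = 0.0173), a call lost with equal-sum scaling (0.0763) and without ad libitum replicate 3 (0.0515). Their receptor gene Fzd4 was at 0.29 (adjusted p = 0.0243), which was lost without any of 5 libraries, ad libitum replicate 1 or 3 or fasted replicate 1, 2 or 3 (0.0521 to 0.0761).

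Among Notch, TGF-beta and PDGF genes 4 of 18 rose and 1 fell, with a median of 0.09. The share called, 27.8%, was near that of all tested genes. S1pr1, a receptor for sphingosine phosphate in endothelium and astrocytes, fell from 51.2 to 35.9 FPKM (-0.50, limma adjusted p = 0.000276). Pdgfb, the ligand of Pdgfrb, rose from 7.25 to 9.20 FPKM (0.31, adjusted p = 0.0079), Hes1, a Notch target, by a log2 change of 0.37 (adjusted p = 0.00641) and Id1, a BMP target, by 0.29 (adjusted p = 0.0118).

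Among 16 further pericyte and smooth muscle genes 1 rose and 5 fell (37.5%, against 25.8% of all tested genes), with a median of -0.13. Bgn, the proteoglycan biglycan, had a log2 change of -0.58 (limma adjusted p = 0.00175). Pde5a, which breaks down cyclic GMP, was at -0.27 (adjusted p = 0.0131, lost with equal-sum scaling at 0.173). Atp13a5, a pericyte transport ATPase, was at -0.22 (adjusted p = 0.0273), lost without fasted replicate 1, 2 or 3, or fed replicate 3 or 4 (0.0589 to 0.0736). Rgs4, also abundant in neurons, was at -0.21 (adjusted p = 0.0413), lost without any library but ad libitum or fasted replicate 4 (0.0630 to 0.117). Both calls were also lost with median-ratio (0.0544 and 0.0694), quantile (0.0698 and 0.162) and equal-sum scaling (0.382 and 0.613). That of Rgs4 was further lost with no filter on low genes (0.0576) and with a term for odd and even replicate numbers (0.0509).

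Of 9 tested genes of arterial and venous zonation 3 fell (33.3%, against 25.8% of all tested genes) and 0 rose. The median was -0.09. Vcam1, a leukocyte adhesion molecule of veins, was at -0.46 (limma adjusted p = 0.000977), Alpl, an alkaline phosphatase of brain endothelium, at -0.50 (adjusted p = 0.00184). Stmn2, largely a neuronal gene, was at -0.25 (adjusted p = 0.0145), lost with equal-sum scaling (0.411) and without ad libitum replicate 3 (0.0509). Of 14 tested genes of the vessel basement membrane and matrix 2 fell (14.3%, under the share of all tested genes) and 0 rose. Mfge8, a secreted bridging protein, went from 50.8 to 32.8 FPKM (-0.61, adjusted p = 0.00077) and Nid1, nidogen, had a log2 change of -0.22 (adjusted p = 0.0382), lost without fasted replicate 1, 3 or 4, or fed replicate 2, 3 or 4 (0.0542 to 0.103), and with quantile (0.0702) or equal-sum scaling (0.356).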

How the data were processed

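Total RNA from occipital cortex was sequenced in 8 libraries, 4 fasted and 4 ad libitum, grouped by the treatment label. The authors deposited FPKM in 1 table of 24883 rows, and per the submitters' processing notes TopHat and mm10 were used. The quantifier, the annotation, versions and strandedness were not given in the sources used here. Where a symbol was on several rows (821 rows), the highest-mean row was kept. Genes that reached 1 FPKM in 4 or more libraries were fitted in R 4.3.3 by limma 3.58.1, with log2(FPKM + 1) as the response, trend and robust moderation and group as the only term. This filter favours genes that are high in either group. Fold changes on this scale understate those of low genes. p-values were adjusted over all tested genes by Benjamini-Hochberg. Tables and figures were made in Python 3.11.15 (pandas 2.3.3, matplotlib 3.10.9).

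Depth was inferred from the step of 1 fragment in 4105 single-transcript genes, and a deeper library could be read as shallower. The fit was tested on simulated data. Deviations from the group mean, compared between libraries of the same number, gave correlations across all tested genes of 0.574, 0.496, 0.382 and 0.523. With protein-coding autosomal genes only (11156), they were 0.335, 0.193, 0.0758 and 0.371. No label states a pairing, and libraries of different numbers were not correlated. These values therefore cannot tell a pairing from traits that libraries of odd or of even number share. The correlation was weak for replicate 3 over autosomal genes. All members are accounted for. From each other vascular list up to 4 called genes of smallest p are named, and from each marker list the 2 highest were looked at. Not every marker gene looked at is reported here. The members and lists were chosen with earlier results of these data known. Alternatives were other pseudocounts, filters, scalings, covariates and moderation, and leaving out each library.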

Additional observations from a re-analysis of the deposited data

Results flagged for a closer look

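Among 88 groups of 4 values, 1 group for each member and condition, 2 held a library far from the other 3, and chance flags about 1 in 20 such groups. Abcg2 was at 6.49 FPKM in ad libitum replicate 2, while the other fed libraries were at 4.82, 5.05 and 5.07 FPKM. Tjp1 was at 14.3 FPKM in fasted replicate 2, while the other fasted libraries were at 15.7, 15.8 and 15.9 FPKM. Neither gene was called.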

How the results depend on the processing

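Higher calls among members were 2 on the deposited values, 4 with median-ratio and with quantile scaling, 5 with equal-sum scaling and 5 with the replicate block, which also gave 16 lower, adding Abcb1a, Esam and Apold1 to the higher and Cdh5, Eng and Ptprb to the lower; it changed no other member's call. Of all tested genes 29.9% were called with median-ratio and with quantile scaling, 17.1% with equal-sum scaling and 36.4% with the block. Under a mean of at least 5 FPKM 14 members were tested, with 2 higher and 4 lower. That filter gave calls for 26.1% of all genes it tested. Over all genes quantile scaling gave 1792 higher, equal-sum scaling 532 lower and the stricter filter 1321 lower. With the stricter filter the endothelial members had 4 calls, further endothelial markers 3, barrier genes 7, WNT genes 0, VEGF genes 3, pericyte and smooth muscle genes 2 and basement membrane genes 1, fewer genes being tested. Equal-sum scaling gave barrier genes 8, VEGF genes 3 and pericyte and smooth muscle genes 1, median-ratio scaling gave the last 3 and quantile scaling 2. The block gave 8 Notch genes, and zonation genes had 5 calls with no filter, median-ratio, quantile scaling or the block. With no filter the basement membrane had 4.

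Leaving out 1 library gave 2 to 3 members higher and 12 to 14 lower, 833 to 1193 genes higher and 1362 to 2529 lower, and calls of 11 to 13 endothelial and 3 to 4 mural members, 6 to 8 further endothelial, 7 to 11 barrier, 2 to 4 WNT, 5 to 7 VEGF, 4 to 5 Notch, 2 to 4 zonation, 2 to 5 pericyte and smooth muscle and 1 to 2 basement membrane genes. Signs turned only among genes not called. Equal-sum scaling put Ocln at 0.0222, Tjp1 at 0.0125, Flt1 at 0.0150, Sox18 at 0.0350, Angpt1 at 0.0417 and Fos at 0.0489. Quantile scaling put Angpt1 at 0.0069. Leaving out a library put Egfl7 at -0.0614 to 0.0632, Foxq1 at -0.0763 to 0.0545, Sox18 at -0.175 to 0.0546, Abcc9 at -0.0185 to 0.0316, Angpt1 at -0.118 to 0.134 and Fos at -0.410 to 0.139. Members that are low or have short transcripts rest on fewer fragments, which limits their precision, as for Aplnr, Slc38a5 and Gkn3 in fasted libraries.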

Other observations

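Some vascular genes were too low for the test. Of the 54 genes of the other vascular lists under the filter, 11 had fasted and fed values that did not overlap, 5 of them higher and 6 lower after fasting, against 9.53% of all 6912 genes under the filter without overlap. They were picked for this pattern, so no test is given. Among the Notch ligands and receptors, Dll4, the ligand of endothelial tip cells, was at 0.493 to 0.588 FPKM in fed and 0.737 to 1.197 FPKM in fasted libraries. Dll1 was at a mean of 0.771 and 1.11 FPKM, and the endothelial receptor Notch4 at 0.556 and 0.802 FPKM. The interleukin receptor Il1r1 was at 0.538 to 0.678 FPKM in fed and 0.877 to 1.08 FPKM in fasted libraries, and Lcn2 at 0 to 0.245 and 0.330 to 0.408 FPKM.

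Lower in every fasted library were Col15a1, a basement membrane collagen, with means of 1.17 FPKM in fed and 0.468 FPKM in fasted libraries, and Angptl2, a secreted angiopoietin-like protein, with 1.03 and 0.385 FPKM. Ednra, the endothelin receptor of smooth muscle, was at 1.15 and 0.734 FPKM, Nid2 at 0.792 and 0.539 FPKM, Sox7 at 0.648 and 0.410 FPKM and Ephb4, a venous receptor, at 1.08 and 0.824 FPKM.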
